A study of Mus musculus with 9 samples.

Results

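The superoxide, catalase and thioredoxin enzymes described here are 10 genes that dispose of superoxide and peroxide or keep the proteins that do so reduced, namely Sod1, Sod2, Cat, Prdx1, Prdx3, Prdx5, Srxn1, Txn1, Txn2 and Txnrd1. They were chosen by gene symbol, and each symbol matched 1 of the 56691 genes in the deposited table. RNA came from RAW264.7, a transformed mouse macrophage line that differentiates towards osteoclasts under RANKL, the cytokine that drives osteoclast formation. The study compared 3 groups of 3 libraries, all from this line after 3 days of culture. Control cells (Ctrl) received no treatment, RANKL cells received RANKL, and RANKL + UD cells received RANKL together with uridine (UD), a pyrimidine nucleoside. The dose of UD is not in the labels. There was no group with UD alone, so a UD difference is known only in the presence of RANKL. The labels describe the 3 libraries of a group as separate biological replicates of this line, so the spread covers cultures of this line and not animals.

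Superoxide formed by NADPH oxidases and by the respiratory chain is converted to hydrogen peroxide by superoxide dismutases. Catalase breaks hydrogen peroxide down in peroxisomes, while peroxiredoxins reduce it in the cytosol and in mitochondria with electrons from thioredoxin, which thioredoxin reductase recharges from NADPH. A peroxiredoxin that has been oxidized too far is repaired by sulfiredoxin. Hydrogen peroxide also acts as a signal downstream of RANK, the receptor for RANKL, in osteoclast precursors.

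The 9 libraries held between 15951800 and 19746862 counts (median 19182637), and the members had between 611 counts (Srxn1) and 15059 counts (Prdx1) in a library. All 10 members entered the test of 11995 genes. The group labels were checked against osteoclast markers. Acp5, Ctsk and Mmp9, which encode tartrate-resistant acid phosphatase, cathepsin K and a matrix metalloproteinase, were higher in RANKL than in control by 8.91, 7.57 and 9.59 on the log2 scale. The summed FPKM (the count scaled to exonic length and library total) of 6 osteoclast markers was 38.1 to 41.0 in control, 2299 to 2500 in RANKL and 1438 to 1466 in RANKL + UD libraries. All 6 (Acp5, Ctsk, Mmp9, Dcstamp, Ocstamp and Oscar) rose with RANKL and fell with UD. The summed FPKM of 5 macrophage markers was 8823 to 9412, 2337 to 2570 and 2041 to 2169 in the same order, with Csf1r, Adgre1, Lyz2 and Itgam lower and Cd68 higher in RANKL than in control. With UD, Adgre1 rose and the other 4 fell. The 7 markers of stroma, lymphocytes, epithelium and endothelium were below an FPKM of 1 in every library. Every member was therefore compared between groups whose markers of differentiation also differed, and the part of that difference in the members' values was not tested.

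The RefSeq promoters (build GRCm38.p6) of the 10 members were searched for letters bound by factors associated with oxidative stress or with osteoclast differentiation. All 10 members had a window of 250 bases before the start, 12 windows in all because Txnrd1 has 3. The antioxidant response element, searched as TGACNNNGC on both strands, was found in Sod1, Prdx1 and Txnrd1, and in 10.16% of all 32851 windows. The first count is of genes, and only the second of the 3 Txnrd1 windows held these letters. These letters require C after TGA, so sites with G at that place were not counted. The AP-1 letters TGANTCA were found in Prdx1 and Srxn1 and in 6.75% of windows. The FoxO letters GTAAACA were found in 0 of the 12 windows of the 10 members and in 3.17% of all windows. With a share this low, 0 of 12 says little, and bases further upstream were not searched. Prdx1 and Srxn1, the only members with AP-1 letters, are shown with every match in capitals, 5′ to 3′ on the strand of the gene (chr4:116685349-116685598, plus strand, and chr2:152105274-152105523, plus strand).
Prdx1: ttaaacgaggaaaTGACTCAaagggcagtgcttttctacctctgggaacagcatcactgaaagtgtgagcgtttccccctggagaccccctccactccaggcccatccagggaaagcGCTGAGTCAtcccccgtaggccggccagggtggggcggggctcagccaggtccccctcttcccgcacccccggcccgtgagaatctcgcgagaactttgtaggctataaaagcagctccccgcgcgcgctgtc
Srxn1: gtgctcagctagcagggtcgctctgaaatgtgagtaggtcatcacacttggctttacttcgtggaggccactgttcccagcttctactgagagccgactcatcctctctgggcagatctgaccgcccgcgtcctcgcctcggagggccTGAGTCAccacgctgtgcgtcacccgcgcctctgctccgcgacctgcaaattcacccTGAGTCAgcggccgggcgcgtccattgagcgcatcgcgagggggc
In Prdx1 the second block of capitals holds both motifs, because the antioxidant response element from -133 to -125 shares 7 of its 9 letters with an AP-1 match from -131 to -125, and the first block is a separate AP-1 match from -237 to -231. In Srxn1 the matches lie from -102 to -96 and from -45 to -39, all counted backwards from the start. The second Srxn1 match and the bases after it missed the antioxidant response element letters only by G in place of C. The matches of the antioxidant response element in Sod1 (chr16:90220696-90220724) and Txnrd1 (chr10:82859104-82859132) are shown with 10 bases on each side.
Sod1: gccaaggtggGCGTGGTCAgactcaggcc
Txnrd1: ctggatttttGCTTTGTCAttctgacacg
None of the letters searched were found in 6 of the 10 members, namely Sod2, Cat, Prdx3, Prdx5, Txn1 and Txn2. Of these, Prdx3 and Txn1 are shown because they rose when UD was added to RANKL (chr19:60874539-60874788 and chr4:57956412-57956661, both minus strand).
Prdx3: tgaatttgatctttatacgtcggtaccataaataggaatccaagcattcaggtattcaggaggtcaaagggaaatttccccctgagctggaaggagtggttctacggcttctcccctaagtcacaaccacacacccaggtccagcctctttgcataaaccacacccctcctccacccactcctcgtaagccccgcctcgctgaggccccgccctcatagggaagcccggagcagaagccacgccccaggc
Txn1: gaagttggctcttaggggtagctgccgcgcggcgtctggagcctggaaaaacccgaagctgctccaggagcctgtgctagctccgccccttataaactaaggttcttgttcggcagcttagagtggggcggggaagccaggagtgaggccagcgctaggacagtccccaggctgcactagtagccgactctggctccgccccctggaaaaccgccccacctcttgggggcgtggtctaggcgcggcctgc
A match describes letters in a window, and no binding was measured in these data.

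With RANKL, 3 members rose (Sod1, Prdx3 and Txn2), 3 fell (Cat, Prdx1 and Prdx5), and Sod2, Srxn1, Txn1 and Txnrd1 did not pass the threshold. With UD added to RANKL, Prdx3 and Txn1 rose, Prdx5 fell by a margin at the threshold, and 7 did not pass. Against control, RANKL + UD was higher for 6 members, lower for 3, and only Sod2 did not pass. Differences were tested across 11995 genes by edgeR (quasi-likelihood, p-values adjusted by Benjamini-Hochberg), and a gene passed at an adjusted p under 0.05. Of all tested genes, 57.6% passed in RANKL against control (27.3% higher, 30.2% lower), 38.8% in RANKL + UD against RANKL (18.6% higher, 20.2% lower) and 54.0% in RANKL + UD against control (26.7% higher, 27.3% lower). The shares of members that passed in the first comparison and in the second were near these backgrounds. The median size of the log2 difference, ignoring its sign, was 0.21 for the members and 0.33 for all genes in RANKL against control, 0.09 and 0.21 in RANKL + UD against RANKL, and 0.36 and 0.29 in RANKL + UD against control. These comparisons share libraries in pairs, so they are not independent of each other.

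**Figure D1:**
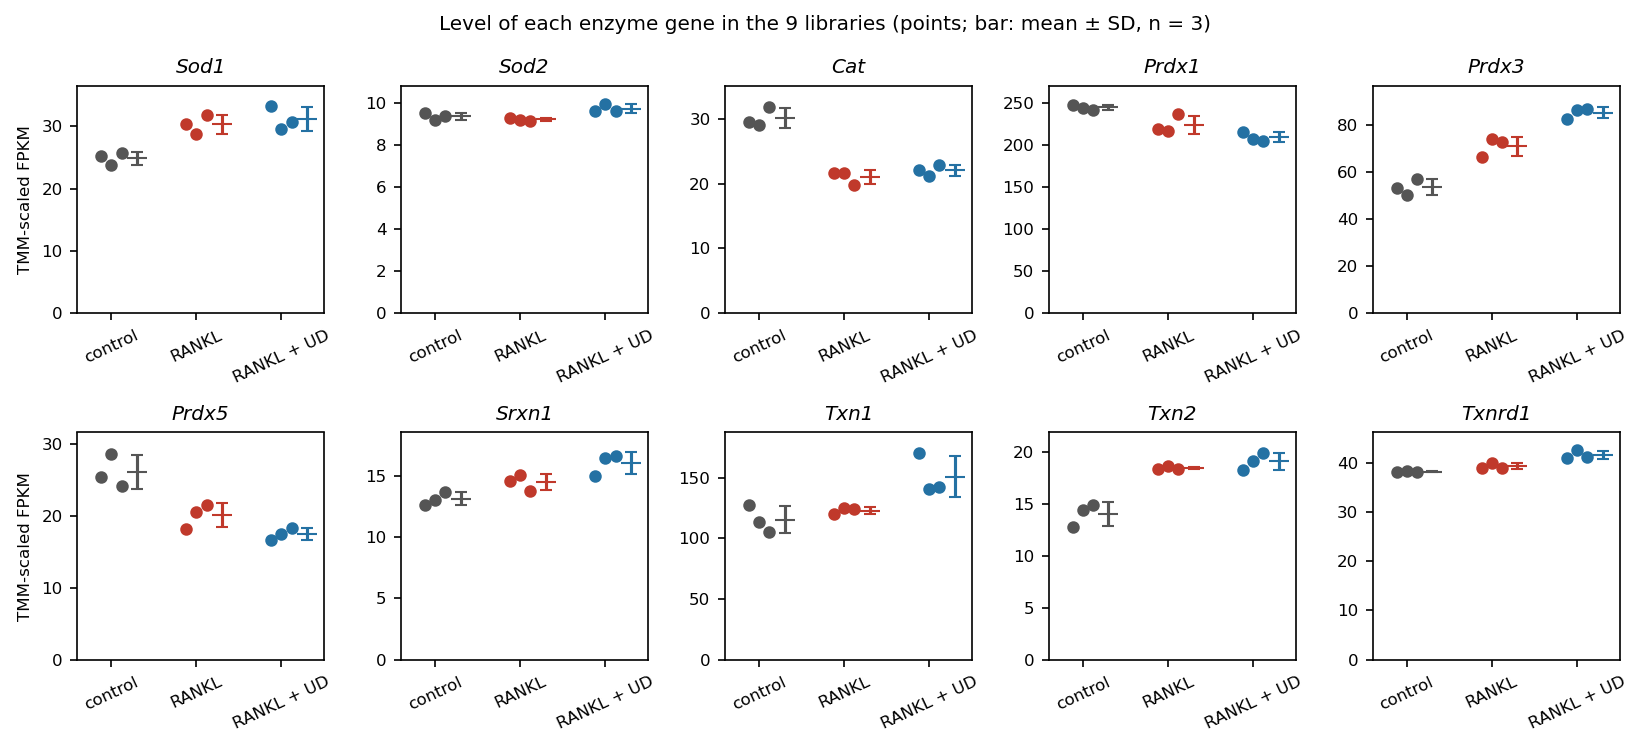
Level of each of the 10 enzyme genes as TMM-scaled FPKM (vertical axis, starting at 0, own scale for each gene) in control, RANKL and RANKL + UD. Points are the 9 libraries and the bars give mean ± SD of 3 libraries. Prdx3 stepped up from group to group, Cat was lower in both RANKL groups than in control, and 1 RANKL + UD library stood above the other libraries for Txn1.

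**Figure D2:**
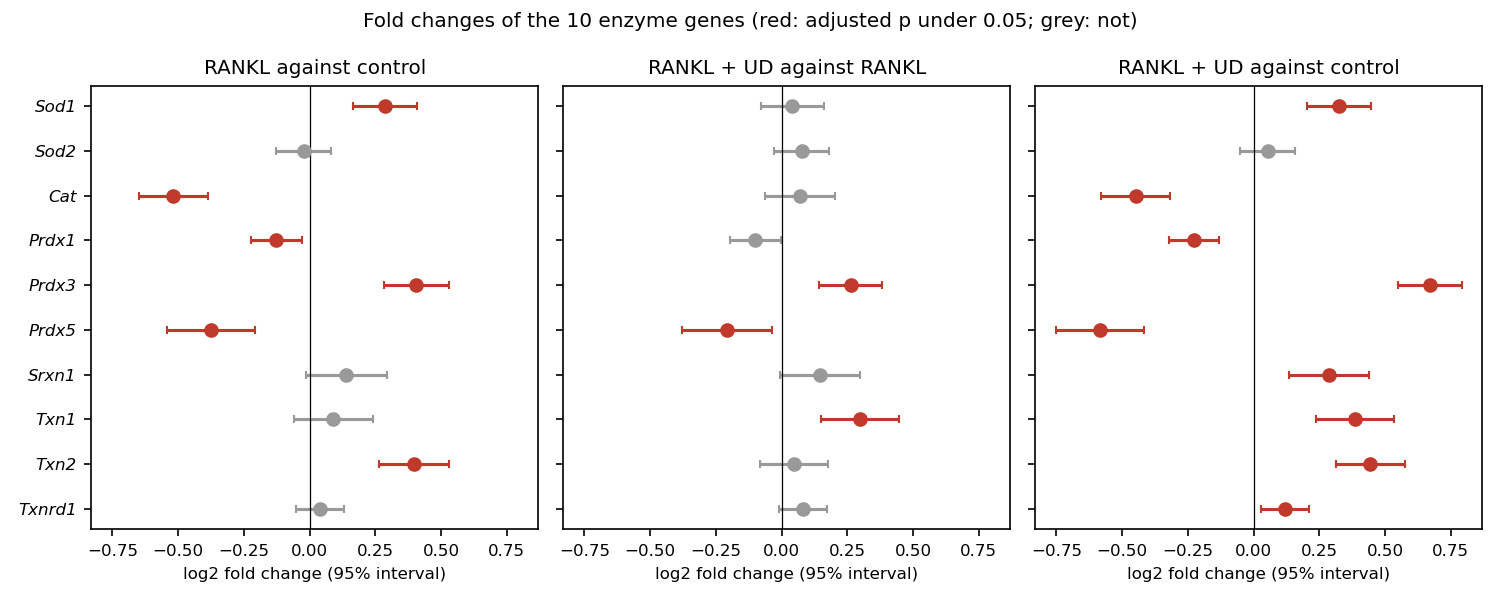
Log2 fold changes of the 10 genes (horizontal axis) in the 3 comparisons, with 95% intervals from edgeR's quasi-likelihood fit; red marks an adjusted p under 0.05 over 11995 genes and grey the rest. The largest values were -0.52 for Cat in RANKL against control, 0.30 for Txn1 in RANKL + UD against RANKL and 0.67 for Prdx3 in RANKL + UD against control.

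Levels below are FPKM divided by the TMM factor of the library, so that they share the scale of the fold changes, and values of a group follow replicates 1, 2 and 3. The TMM factors were 0.959 to 0.962 in RANKL and 1.01 to 1.03 in the other libraries, so the deposited FPKM of RANKL libraries sit lower against both other groups than these levels do. FPKM divides by the summed exon length of all annotated forms, which was 10008 bases for Sod2 and 1051 bases for Txn1, so the order of levels between genes depends on that length. By this measure Prdx1 was the highest member, with a mean of 244.6 in control, followed by Txn1 at 115.4 and Prdx3 at 53.7. The control means of Txnrd1 (38.2), Cat (30.1), Prdx5 (26.1) and Sod1 (24.9) came next, and Txn2 (14.0), Srxn1 (13.1) and Sod2 (9.38) were lowest. Of neighbours in this order, the control libraries overlapped for Prdx5 and Sod1 and for Txn2 and Srxn1, and for no other pair.

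The superoxide dismutases moved apart under RANKL. Sod1 (ENSMUSG00000022982, chromosome 16, 90017642 to 90023217 in the deposited table) encodes the copper and zinc enzyme of the cytosol. Its level was 25.2, 23.7 and 25.8 in control, 30.3, 28.8 and 31.9 in RANKL, and 33.3, 29.5 and 30.7 in RANKL + UD. Every RANKL and RANKL + UD library lay above every control library, and the 2 treated groups overlapped. Sod1 rose by 0.29 ± 0.06 (log2, SE) with RANKL (adjusted p = 0.00027, edgeR), while RANKL + UD differed from RANKL by 0.04 (95% interval -0.08 to 0.16, adjusted p = 0.619). Sod2 (ENSMUSG00000006818, chromosome 17, 13225733 to 13258950) encodes the manganese enzyme of the mitochondrial matrix. It stood at 9.53, 9.23 and 9.38 in control, 9.31, 9.23 and 9.18 in RANKL, and 9.62, 9.99 and 9.63 in RANKL + UD. The RANKL + UD libraries were the highest of the 9, by a small margin. The difference was -0.02 (95% interval -0.13 to 0.08) for RANKL against control and 0.08 (95% interval -0.03 to 0.18, adjusted p = 0.246) for RANKL + UD against RANKL. Within each library the ratio of Sod1 to Sod2 was 2.57 to 2.75 in control, 3.12 to 3.48 in RANKL and 2.95 to 3.46 in RANKL + UD. These ratios do not depend on the scaling between libraries, and both treated groups lay above control without overlap. Sod1 shares 650 bases with Scaf4 on the opposite strand, and the sources used here do not say whether counting used the strand. The extracellular enzyme gene Sod3 had at most 1 count in a library, below the limit of 3 counts at which a gene would have been taken as detected.

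Catalase was the member that fell most with RANKL. Cat (ENSMUSG00000027187, chromosome 2, 103284194 to 103315505) was at 29.4, 29.0 and 31.9 in control, 21.6, 21.6 and 19.8 in RANKL, and 22.1, 21.2 and 22.8 in RANKL + UD. Both RANKL groups lay wholly below control and overlapped each other. Cat fell by 0.52 on the log2 scale with RANKL (SE 0.06, adjusted p = 4.2e-07), and RANKL + UD remained below control by a log2 difference of -0.45 (adjusted p = 3.4e-06). The difference of RANKL + UD from RANKL was 0.07 (95% interval -0.06 to 0.20, adjusted p = 0.417).

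Among the peroxiredoxins, Prdx3 and Prdx1 moved in opposite directions. Prdx3 (ENSMUSG00000024997, chromosome 19, 60852489 to 60862994) encodes a peroxiredoxin of the mitochondrial matrix. Its level was 53.5, 50.5 and 57.2 in control, 66.6, 74.2 and 72.7 in RANKL, and 82.8, 86.4 and 87.1 in RANKL + UD. The 3 groups did not overlap, in the order control, RANKL, RANKL + UD. Prdx3 rose 1.32-fold with RANKL (log2 0.41 ± 0.06, SE; adjusted p = 4.83e-06) and a further 1.20-fold with UD (log2 0.26 ± 0.06; adjusted p = 0.00101), which made it 1.59-fold higher in RANKL + UD than in control. Prdx1 (ENSMUSG00000028691, chromosome 4, 116542741 to 116558019), the main cytosolic peroxiredoxin, was at 248, 244 and 242 in control, 219, 217 and 236 in RANKL, and 216, 207 and 204 in RANKL + UD. On this scale the groups again did not overlap, in the reverse order, but RANKL and RANKL + UD overlapped in the deposited FPKM. Prdx1 was lower in RANKL by a log2 difference of -0.13 (SE 0.05, adjusted p = 0.0239) and lower in RANKL + UD than in control by -0.23 (adjusted p = 0.000293), while the difference between the treated groups was -0.10 (unadjusted 95% interval -0.20 to -0.0036, adjusted p = 0.0949) and -0.01 with total counts. The call in RANKL against control was lost without control replicate 1 (adjusted p = 0.0718), control replicate 2 (0.0544), RANKL replicate 1 (0.082) or RANKL replicate 2 (0.114), and with no filter (0.0609) or only the 6 libraries compared (0.0945).

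Prdx5 (ENSMUSG00000024953, chromosome 19, 6884065 to 6887474) encodes a peroxiredoxin of mitochondria, peroxisomes and cytosol. It was at 25.5, 28.7 and 24.1 in control, 18.3, 20.6 and 21.6 in RANKL, and 16.6, 17.4 and 18.3 in RANKL + UD. All control libraries lay above all others, and the highest RANKL + UD library (18.27) was just above the lowest RANKL library (18.26). Prdx5 fell by 0.38 on the log2 scale with RANKL (SE 0.08, adjusted p = 0.000396), and RANKL + UD was lower than control by -0.58 (adjusted p = 2.86e-06). The further difference with UD was -0.21 ± 0.08, with an adjusted p of 0.0491 that passed in 7 of 18 alternatives and ranged from 0.0168 to 0.29 over them. It was 0.0533 without control replicate 1, 0.13 and 0.188 without RANKL replicates 2 and 3, and 0.167, 0.104 and 0.0542 without RANKL + UD replicates 1, 2 and 3. Prdx5 shares 409 bases with Trmt112 on the opposite strand, a gene listed at an FPKM of 23.6 to 30.5. Prdx5 and Prdx3, which both work in mitochondria, thus moved in opposite directions with RANKL.

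The ratio of Prdx1 to Prdx3 within a library was the pattern that separated the groups furthest among 7 ratios examined. It was 4.63, 4.84 and 4.22 in control, 3.29, 2.92 and 3.25 in RANKL, and 2.60, 2.40 and 2.35 in RANKL + UD. The means were 4.56 ± 0.316 (SD, n = 3), 3.15 ± 0.203 and 2.45 ± 0.136, and no libraries of different groups overlapped. The exact permutation test gave p = 0.1 for each of the 3 comparisons, which is the smallest two-sided value that 3 against 3 libraries allow, and none of the 21 comparisons of ratios could pass a threshold of 0.05. Prdx1 made up 42.6% to 43.3% of the summed FPKM of the 10 members in control, 38.0% to 40.3% in RANKL and 34.5% to 35.1% in RANKL + UD. The sum itself, TMM-scaled, was 562 to 582, 557 to 587 and 590.2 to 624.

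**Figure D3:**
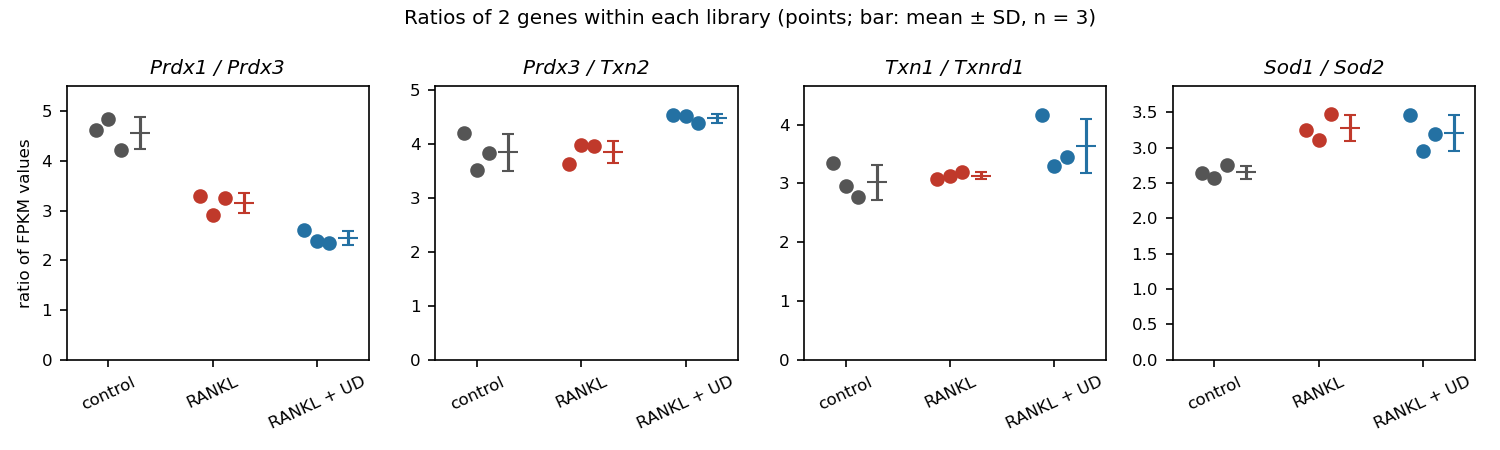
Ratio of the FPKM of a pair of genes within each library (vertical axis, starting at 0) for Prdx1 to Prdx3, Prdx3 to Txn2, Txn1 to Txnrd1 and Sod1 to Sod2. Points are libraries and bars give mean ± SD of 3. Prdx1 to Prdx3 had means of 4.56, 3.15 and 2.45, while Prdx3 to Txn2 had a mean of 3.85 in both control and RANKL and of 4.48 in RANKL + UD.

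Sulfiredoxin, which restores overoxidized peroxiredoxins, had the lowest FPKM of the cytosolic members. Srxn1 (ENSMUSG00000032802, chromosome 2, 151947436 to 151953296) was at 12.7, 13.0 and 13.7 in control, 14.6, 15.1 and 13.8 in RANKL, and 15.0, 16.5 and 16.6 in RANKL + UD. The RANKL libraries lay above control by a narrow gap on this scale and overlapped with control in the deposited FPKM. The log2 differences of 0.14 with RANKL (95% interval -0.01 to 0.29, adjusted p = 0.112) and 0.15 with UD (95% interval -0.0049 to 0.30, adjusted p = 0.12) did not pass, but RANKL + UD was higher than control by 0.29 ± 0.07 (adjusted p = 0.00236).

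Of the thioredoxins, Txn2 rose with RANKL and Txn1 rose with UD. Txn2 (ENSMUSG00000005354, chromosome 15, 77799247 to 77813206) encodes the mitochondrial thioredoxin that reduces Prdx3. It stood at 12.7, 14.4 and 14.9 in control, 18.4, 18.6 and 18.4 in RANKL, and 18.3, 19.2 and 19.9 in RANKL + UD. All treated libraries lay above control and the treated groups overlapped. Txn2 rose by 0.40 ± 0.06 with RANKL (log2, SE; adjusted p = 1.57e-05), and differed by 0.05 (95% interval -0.08 to 0.18, adjusted p = 0.586) when UD was added. Txn1 (ENSMUSG00000028367, chromosome 4, 57943373 to 57956411) encodes the cytosolic thioredoxin that serves Prdx1. Its level was 127.8, 113 and 105.4 in control, 120.0, 124.8 and 124.0 in RANKL, and 170.1, 140.3 and 142 in RANKL + UD. Control and RANKL overlapped, and every RANKL + UD library lay above both, with replicate 1 far above replicates 2 and 3. Txn1 differed by 0.09 between RANKL and control (95% interval -0.06 to 0.24, adjusted p = 0.3) and rose by 0.30 ± 0.07 with UD (adjusted p = 0.00224). Without RANKL + UD replicate 1 the rise was 0.20 (adjusted p = 0.0257). The log2 ratio of Txn1 to Txn2 differed by -0.31 with RANKL and by 0.24 with UD, without overlap and each at the smallest p of the exact permutation test (0.1). The pseudogene Txn-ps1, which resembles Txn1, was listed at an FPKM of at most 0.67, and reads shared with it could not be told apart here.

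Txnrd1 (ENSMUSG00000020250, chromosome 10, 82669785 to 82733546), the selenoprotein that reduces Txn1 in the cytosol, varied little between libraries. Its control SD was 0.0212 on this scale and 0.19 in the deposited FPKM, so how narrow it was depends on the scaling. Txnrd1 was at 38.18, 38.19 and 38.15 in control, 39.0, 39.9 and 38.8 in RANKL, and 40.9, 42.5 and 41.2 in RANKL + UD. The groups stepped up without overlap, although in the deposited FPKM the RANKL libraries lay below the control libraries, so the direction of the first step depends on the scaling. The log2 difference was 0.04 with RANKL (95% interval -0.05 to 0.13, adjusted p = 0.469) and 0.08 with UD (95% interval -0.01 to 0.17, adjusted p = 0.156). RANKL + UD was higher than control by 0.12 ± 0.04 (adjusted p = 0.0257), a call lost without control replicate 1 (0.0596), control replicate 2 (0.0606), RANKL + UD replicate 2 (0.11) or RANKL + UD replicate 3 (0.054). Txnrd1 overlaps Eid3 on its own strand and Gm38560 and Gm47073 on the opposite strand. The ratio of Txn1 to Txnrd1 was 2.76 to 3.35 in control, 3.08 to 3.20 in RANKL and 3.30 to 4.16 in RANKL + UD, above RANKL in every RANKL + UD library.

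Read without a test, the libraries did not overlap for 5 members higher and 3 lower in RANKL against control (29.0% and 32.0% of all genes, 61.0% in all), for 4 higher and 1 lower in RANKL + UD against RANKL (24.4% and 24.9%, 49.3% in all), and for 7 higher and 3 lower in RANKL + UD against control (29.7% and 30.4%, 60.1% in all). On the deposited FPKM the counts became 3 higher and 5 lower (backgrounds 22.9% and 38.8%) in the first comparison and 7 higher and 0 lower (34.1% and 17.6%) in the second. With total counts and no further scaling, the median of all genes moved from -0.03 to -0.12 in RANKL against control and from 0.01 to 0.09 in RANKL + UD against RANKL. On that scaling, edgeR called Sod2 (0.16), Srxn1 (0.23) and Txnrd1 (0.17) higher with UD beside Prdx3 and Txn1, and Prdx5 did not pass, beside 27.9% of all genes higher and 14.2% lower. Limma on log2(FPKM + 1) called these 5 and Cat higher and none lower (24.9% and 13.0% of all genes), the counts with a pseudocount of 0.1 were equal (24.9% and 12.8%), and DESeq2 called Prdx3 and Txn1 higher and Prdx1 and Prdx5 lower (17.2% and 20.9%). Prdx3 and Txn1 were called higher in RANKL + UD against RANKL in 18 of 18 alternatives, as were Sod1, Prdx3 and Txn2 higher and Cat and Prdx5 lower in RANKL against control.

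**Figure D4:**
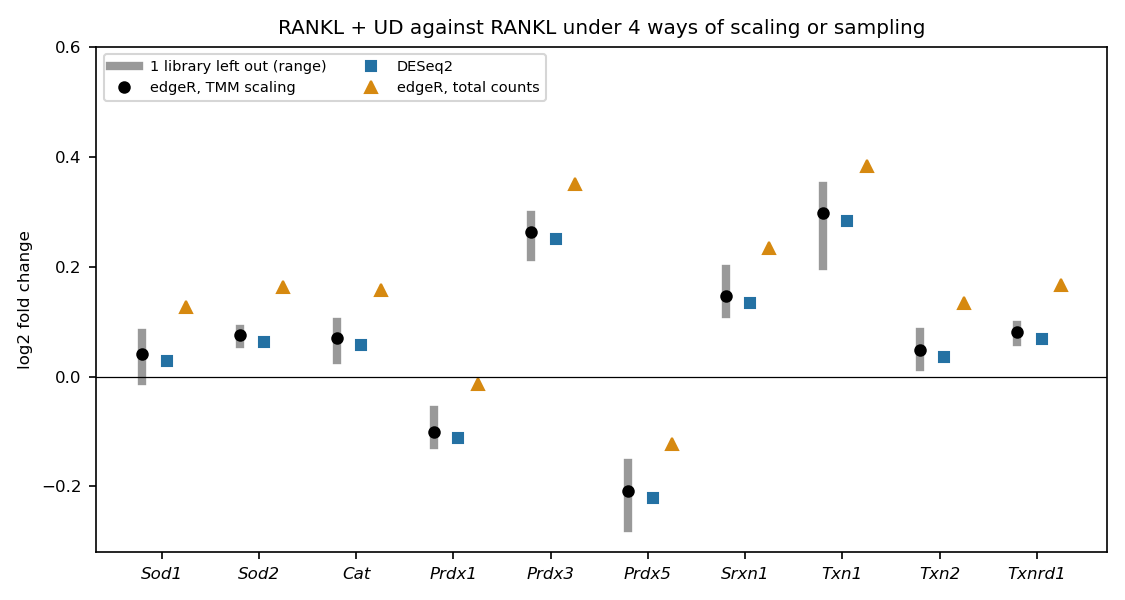
Log2 fold change of each gene in RANKL + UD against RANKL (vertical axis) with TMM scaling in edgeR (black), in DESeq2 (blue) and with total counts in edgeR (orange). Grey bars span the 9 fits that each left out 1 library. The orange points lie above the black points for all 10 genes, and Prdx3 and Txn1 lie above 0 throughout.

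Other genes of the superoxide and thioredoxin system moved more widely than the members. Of 18 such genes, 15 were tested, Sod3, Msrb3 and Sesn3 being too low. With RANKL 5 rose and 7 fell (median 0.16, against -0.03 over all genes), beside 27.3% and 30.2% of all genes. With UD 4 rose and 1 fell (median -0.02, against 0.01), beside 18.6% and 20.2%. Txnip, which encodes the protein that binds and inhibits thioredoxin, showed the widest range. It was at 324, 339 and 333 in control, 41.3, 40.1 and 43.0 in RANKL, and 193, 197 and 201 in RANKL + UD. It fell by 3.00 on the log2 scale with RANKL (SE 0.05, adjusted p = 3.13e-21) and was 2.25 higher with UD (adjusted p = 5.17e-18), still below control.

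Of the remaining peroxiredoxins, Prdx4 and Prdx6 fell with RANKL and rose with UD, while Prdx2 rose with RANKL. Prdx2, a cytosolic form abundant in red cells, rose by 0.65 with RANKL and did not pass with UD (-0.07, adjusted p = 0.25). Prdx4, the form of the endoplasmic reticulum, fell by 0.31 on the log2 scale with RANKL and rose by 0.19 with UD. Prdx6, which uses glutathione, fell by 0.58 on the log2 scale with RANKL and rose by 0.14 with UD (adjusted p = 0.0467). Of the other reductases, Txnrd3 rose by 1.43 with RANKL, while mitochondrial Txnrd2 did not pass in either comparison (0.21 and -0.18, adjusted p = 0.0867 and 0.17). Sesn2, a stress-induced sestrin, rose by 1.17 with RANKL and fell by 0.86 on the log2 scale with UD. The methionine sulfoxide reductases Msra (-0.62) and Msrb2 (-1.37) and the thioredoxin-bound kinase gene Map3k5 (-1.18) fell with RANKL, with no call when UD was added.

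NADPH supplies the electrons of this system. Of 7 supply genes 6 were tested, Nnt being too low. With RANKL 1 rose and 2 fell, beside 27.3% and 30.2% of all genes. With UD 3 rose (Me1, G6pdx and Pgd), beside 18.6% of all genes, and the others did not pass. Me1, encoding malic enzyme, rose by 0.60 with RANKL and by a further 0.80 with UD. G6pdx, which encodes the first enzyme of the pentose phosphate pathway, fell by 0.70 on the log2 scale with RANKL and rose by 0.25 with UD, and Idh1 fell by 0.79 on the log2 scale with RANKL.

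The transcription factor NRF2, encoded by Nfe2l2, controls several members through the antioxidant response element. Nfe2l2 fell by 0.67 on the log2 scale with RANKL (adjusted p = 1.29e-09) and did not pass with UD (-0.06, adjusted p = 0.431). Of 11 regulators and targets of NRF2 in a list apart from the members, 10 were tested, the target Nqo1 being too low. With RANKL 2 rose and 4 fell (median 0.04), beside 27.3% and 30.2% of all genes. With UD 2 rose and 5 fell (median -0.15), beside 18.6% and 20.2%. Among the 5 were the regulator genes Bach1 (-0.24) and Mafk (-0.22). The list mixes NRF2, factors that oppose it and its targets, so these counts and medians give no direction of its activity. Keap1, whose protein targets NRF2 for degradation, fell by 0.50 on the log2 scale with RANKL. The targets Hmox1 (heme oxygenase, -1.11) and Slc7a11 (the cystine transporter, -1.02) and the partner gene Maff (-0.62) fell with UD, while the targets Gclc (0.20, adjusted p = 0.0052) and Gclm (0.28, adjusted p = 0.0046), which encode the subunits of the first enzyme of glutathione synthesis, rose. Srxn1, Prdx1 and Txnrd1, which are also known NRF2 targets, differed from RANKL by 0.15, -0.10 and 0.08 and did not pass. Txn1, a further known target among the members, rose by 0.30 (adjusted p = 0.00224). The NADPH supply genes counted above also include known targets, and not only among those that rose. Me1, G6pdx and Pgd rose with UD, while Idh1 (-0.09), Taldo1 (0.0015) and Tkt (0.12) did not pass. Maff had risen by 0.66 with RANKL. Of 3 FoxO genes, which encode factors known to control Sod2 and Cat, Foxo1, Foxo3 and Foxo4 had adjusted p-values of 0.0584, 0.167 and 0.883 with RANKL. Foxo4 fell with UD by 0.51 on the log2 scale (adjusted p = 0.00665), and Foxo1 and Foxo3 did not pass. These are RNA levels and do not measure the activity of the FoxO proteins. For the protein, the paper reports less phosphorylated FoxO and more FoxO in the nucleus with UD than with RANKL alone.

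Mitochondrial genes were set beside Sod2, Prdx3, Prdx5 and Txn2. Of 8 nuclear genes for mitochondrial proteins, 7 rose with RANKL (median 0.53), beside 27.3% of all genes. They were Atp5b (0.82), Vdac1 (0.68), Hspa9 (0.62), Tomm20 (0.54), Hspd1 (0.51), Cs (0.39) and Cox4i1 (0.37). Tfam (-0.07) did not pass. With UD 1 rose and 2 fell (median 0.00), beside 18.6% and 20.2% of all genes. The share of counts on the mitochondrial genome was 3.67% to 4.03% in control, 4.46% to 4.71% in RANKL and 4.49% to 4.70% in RANKL + UD. Prdx3 (0.41) and Txn2 (0.40) were therefore below the median of that mitochondrial list with RANKL but inside its range, beside Cs and Cox4i1. Sod2 (-0.02) lay far below the median, near Tfam, while Prdx5 (-0.38) went the other way. With UD, Prdx3 (0.26 ± 0.06, SE) and the highest gene of the list, Hspd1 (0.24 ± 0.05), differed by less than either SE, and Prdx5 was at -0.21. Whether the amount of mitochondria per cell had a part in these values was not tested.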

How the data were processed

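RNA of RAW264.7 cells was measured in 9 libraries, 3 per group, assigned from their labels. Libraries were paired-end, strand-specific and poly(A)-selected per the labels, and Illumina NovaSeq sequencing is named in the paper. The counts are whole reads per gene, deposited by the authors without normalization. The FPKM values were deposited by the authors and equal the count divided by exonic length and total count, which was checked by recomputing 100% of them. The value columns of the RANKL libraries are named Model, the paper's word for that group. The submitters' processing notes name mm10, but 9 of the 10 members (all but Txn1) have another start or end in the GRCm38 RefSeq annotation. The deposited positions are displaced as a whole. Sod1 starts at 90017642 as deposited, while its GRCm38.p6 promoter window starts at 90220512. Cat, on the minus strand, ends at 103315505, while its window starts at 103485154. The deposited coordinates therefore do not follow the build named, and their own build is not stated. The aligner, counting tool and annotation are not given in the sources used here. Gene coordinates are printed as deposited and promoter coordinates from RefSeq on GRCm38.p6, so they cannot be set against each other.

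Counts were scaled by TMM and tested with edgeR 4.0.16 (quasi-likelihood, R 4.3.3, all 9 libraries in one fit, Benjamini-Hochberg) over 11995 genes (FPKM 1 or more in 3 or more libraries), after a check on simulated counts. The paper names DESeq2, run here as an alternative (1.42.0), as was limma 3.58.1 on log2(FPKM + 1) and log2(FPKM + 0.1). Other alternatives were RLE scaling, total counts, no filter, filterByExpr, only the 6 libraries compared, a replicate block, and each of 9 libraries left out. Ratios were tested by exact permutation. Tables used Python 3.11.15 with pandas 2.3.3. The members and gene lists were chosen with earlier results of these data known. Named genes are all members, list genes that passed with a log2 difference of at least 0.5 in either direction in RANKL against control or RANKL + UD against RANKL, close relatives and regulators (Prdx2, Prdx4, Prdx6, Sod3, Txnrd2, Txnip, Nfe2l2), 3 osteoclast markers, and for each member the gene with the nearest pair of fold changes. Gclc, Gclm, Pgd, Taldo1, Tkt, Bach1, Mafk, Foxo1, Foxo3, Cs, Cox4i1, Tfam, list genes too low to test and the remaining markers are named beside their counts.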

Additional observations from a re-analysis of the deposited data

How the results depend on the processing

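Over 18 alternatives, no called member changed direction, and 93 counts of members stayed within 1.5 times their value. Differences that did not pass changed sign for Txnrd1 in RANKL against control (0.04 with TMM, -0.05 with total counts) and Sod1 in RANKL + UD against RANKL (0.04, -0.0087 without RANKL + UD replicate 1). The 15 counts that moved were all in RANKL + UD against RANKL. Members called higher, 2 with TMM, were 5 with total counts and 6 with limma on log2(FPKM + 1) or log2(FPKM + 0.1). Members called lower, 1 with TMM (Prdx5), were 0 with total counts, no filter, filterByExpr and both limma settings, and 2 with DESeq2, which added Prdx1. When each library was left out, the lower count ranged from 0 to 1, and Prdx5 was lost without control replicate 1, RANKL replicates 2 or 3, or any RANKL + UD replicate. With total counts 66.2% of called genes were higher with UD, against 48% with TMM, and 36.8% against 47.5% in RANKL against control. The number of genes called did not move by 1.5 times under any alternative.

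With group means removed, libraries of different groups had correlations of -0.0194 to 0.0984 over 9 same-numbered pairs. Over 18 pairs with different numbers they were -0.102 to 0.0464, and 0 of either kind were over 0.1. These small values do not settle whether the replicate numbers pair the libraries. A replicate block left the member counts at 3 higher and 3 lower, 2 and 1, and 6 and 3, and moved the calls over all genes from 6906 to 7040, 4651 to 4865 and 6473 to 6602.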

Other observations

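For each member, the tested gene with the nearest pair of log2 differences (RANKL against control, RANKL + UD against RANKL; Euclidean distance over these 2 values) was Chtf8 for Sod1 (distance 9e-04), Mterf3 for Sod2 (0.0046), Pafah2 for Cat (0.0098), Scamp2 for Prdx1 (0.0013), H4c14 for Prdx3 (0.0092), Zfp740 for Prdx5 (0.013), Mbtps2 for Srxn1 (0.0039), Phf5a for Txn1 (0.0033), Nras for Txn2 (0.0061) and Tatdn2 for Txnrd1 (0.0066). Between 74 genes (Prdx3) and 573 genes (Sod2) lay within a distance of 0.1 of a member, so a nearest gene was 1 of many with like values.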
